A study of Mus musculus with 6 samples.

Results

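Axon guidance genes of the ephrin, Slit, netrin and RGM systems were compared in mouse dorsal root ganglia with and without Cre recombinase directed at a floxed kinesin gene. The rule picks genes by symbol and uses no measured value, although it was written with earlier results of these data known: Eph receptors, ephrins, Slits, Robos, netrins and netrin-G genes, the netrin receptors Dcc and Unc5, and Rgma, Rgmb and neogenin (Neo1). The rule found 41 of the 16613 genes in the deposited table, namely 13 Eph receptors, 8 ephrins, 3 Slits, 3 Robos, 6 netrins, 5 netrin receptors and 3 genes of the RGM system. All 41 passed the filter on low counts, and their counts per library ran from 7 to 5985.

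A dorsal root ganglion contains sensory neuron somata along with Schwann cells, satellite glia, blood vessels and macrophages. All mice were 6 months old and homozygous for floxed Kif2a (Kif2a fl/fl). The 3 control libraries came from such mice without Cre, and the 3 knockout libraries from mice with Avil cre in addition, in which the promoter of Avil, active in sensory neurons, drives the recombinase. The libraries of each group are numbered 1 to 3, nothing in the labels ties a library to 1 animal, and p-values therefore measure the spread between these libraries, part of which may be technical.

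These gene families are the classical contact and diffusible cues that steer axons in the embryo. Ephrins are membrane-bound ligands of the Eph receptor tyrosine kinases. Slits are secreted ligands of Robo receptors and are known in mouse embryos to govern how sensory axons branch as they enter the spinal cord. Netrins attract axons through Dcc and repel them through Unc5 receptors, while the RGM proteins are lipid-anchored, bind neogenin and act as co-receptors for bone morphogenetic proteins (BMPs). Rgmb is also known as Dragon.

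Between 16090726 and 19221415 counts were summed per library. The filter on low counts left 15043 genes to test. Kif2a, the floxed gene, was at 105.6, 93.9 and 92.7 CPM (counts per 1e6 after TMM scaling) in the control libraries, always in the order of replicates 1, 2 and 3, and at 90.6, 85.7 and 88.5 CPM in the knockout libraries. Kif2a missed the threshold (log2 fold change -0.14, SE 0.10, edgeR adjusted p = 0.957). When libraries were compared within their numbered pairs, Kif2a missed it too (SE 0.07, edgeR adjusted p = 0.284). It was lower in each pair and the groups did not overlap, which held for 11.1% of all tested genes. Whole-gene counts do not isolate the deleted part. Avil was at 1003 to 1095 CPM in the control and 439.5 to 517.6 CPM in the knockout libraries, so loss of Kif2a, presence of Cre and lower Avil cannot be told apart here. The 10 general neuron markers summed to 11393 to 11951 CPM in the control and 11507 to 12958 CPM in the knockout libraries, and all 10 were detected. Control replicate 2 stood apart in 6 skeletal muscle markers, which summed to 1220 CPM there and to 5.63 to 55.6 CPM in the other 5 libraries.

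The start regions of 4 members are shown because they carry the clearest differences for which a sequence was at hand: Robo2 and Rgmb, which fell, and Robo4 and Efnb2, the members with higher knockout values that had the smallest p without a block. Each window runs from 250 bases before to 50 bases after a transcription start annotated by RefSeq on GRCm38.p6 and is written 5′ to 3′ along the gene. Capitals mark matches, on either strand, to the 6 motifs searched. The TATA box was searched as TATAAA. The CCAAT box was searched as its own name spells it. The GC box was searched as GGGCGG. The core bound by Runx factors was searched as TGTGGT, a homeodomain core as TAATTA, and the E-box, bound by helix-loop-helix factors, as CACGTG.
Robo2, chr16:74411776-74412075, minus strand: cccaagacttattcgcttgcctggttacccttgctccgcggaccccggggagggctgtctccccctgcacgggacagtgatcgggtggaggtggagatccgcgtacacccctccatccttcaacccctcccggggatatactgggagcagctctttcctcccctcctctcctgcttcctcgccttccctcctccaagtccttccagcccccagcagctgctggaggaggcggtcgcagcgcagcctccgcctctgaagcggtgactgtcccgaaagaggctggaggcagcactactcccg
Rgmb, chr17:15831016-15831315, minus strand: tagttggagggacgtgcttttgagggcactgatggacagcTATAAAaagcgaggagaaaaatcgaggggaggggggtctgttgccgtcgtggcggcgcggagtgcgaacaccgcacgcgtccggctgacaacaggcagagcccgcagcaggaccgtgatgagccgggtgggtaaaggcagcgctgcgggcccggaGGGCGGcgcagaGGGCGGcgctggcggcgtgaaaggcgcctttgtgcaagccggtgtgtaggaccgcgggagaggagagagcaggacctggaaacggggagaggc
Efnb2, chr8:8661193-8661492, minus strand: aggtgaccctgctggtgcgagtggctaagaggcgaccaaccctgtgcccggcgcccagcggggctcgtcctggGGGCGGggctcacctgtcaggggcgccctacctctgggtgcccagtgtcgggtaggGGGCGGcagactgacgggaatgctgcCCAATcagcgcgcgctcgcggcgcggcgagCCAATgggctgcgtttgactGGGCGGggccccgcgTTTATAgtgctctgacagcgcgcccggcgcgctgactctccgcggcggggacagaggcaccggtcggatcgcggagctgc
Robo4, chr9:37401722-37402021, plus strand: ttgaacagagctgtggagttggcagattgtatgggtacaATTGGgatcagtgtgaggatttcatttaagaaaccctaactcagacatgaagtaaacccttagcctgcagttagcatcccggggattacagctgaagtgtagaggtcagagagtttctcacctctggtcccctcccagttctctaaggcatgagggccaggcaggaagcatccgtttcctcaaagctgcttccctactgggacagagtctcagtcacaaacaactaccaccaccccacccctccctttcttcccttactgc

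The Robo2 window, at the 5′ end of the gene in GENCODE M21, held none of the 6 motifs, and RefSeq lists 2 further Robo2 starts upstream of it. The Rgmb window shown, the nearest of 3 to the 5′ end in GENCODE, held 1 TATA box match and 2 GC box matches. Of the other Rgmb windows, one held 1 TATA box and 1 CCAAT box match and the other 2 CCAAT box and 4 GC box matches. The Efnb2 window held 1 TATA box, 2 CCAAT box and 3 GC box matches. Robo4 held a single CCAAT box match. The number of CG dinucleotides was 35 for Efnb2, 30 for Rgmb, 17 for Robo2 and 2 for Robo4, against a median of 7 over 32851 windows of the same length. RefSeq windows were matched for 35 of the 41 members, whose median was 23. The GC box was in 68.6% of these 35 windows and in 35.7% of all windows, and the CCAAT box in 42.9% and 37.4%. The TATA box was in 8.57% and 13.6%, the Runx core in 8.57% and 16.8%, the homeodomain core in 5.71% and 5.29%, and the E-box in 2.86% and 7.15%. These are matches of letters, and binding was not measured.

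Slit1, Robo2 and Rgmb fell in the knockout and no guidance gene rose, when the libraries were compared within their numbered pairs. Slit1, a secreted Robo ligand, fell by 0.62 on the log2 scale (SE 0.07). Robo2, its receptor, fell by 0.39 (SE 0.09), and the BMP co-receptor gene Rgmb fell by 0.29 (SE 0.07). These 3 genes were also the 3 with the highest control level per transcript length among the 41. The other 38 members did not pass. All 3 also passed without pair 2, which holds control replicate 2 (3 called), and 2 members were called without pair 1 (Robo2 and Slit1). Without pair 3 the 2 called were Slit1 and, higher in the knockout, Ntng1, so that Robo2 and Rgmb were lost. Without the block, the fold changes moved when 1 library was left out. Slit1, at -0.59 with all libraries, was at -0.34 without control replicate 1 and -0.97 without knockout replicate 1. Robo2, at -0.38, was at -0.24 without knockout replicate 3. Rgmb, at -0.28, was at -0.13 when control replicate 1 was left out. It was at -0.49 when knockout replicate 1 was left out and at -0.16 when knockout replicate 3 was.

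The calls come from edgeR with the replicate number as a block, at a Benjamini-Hochberg adjusted p under 0.05 over all tested genes, and "rose" and "fell" are used only of genes that passed there. That test called 542 genes, 3.6% of those tested, of which 355 (2.36%) were lower and 187 (1.24%) higher. The 3 called members are 7.32% of the 41. Without the block edgeR called 0 of 15043 genes and 0 members, with 825 genes (5.48%) and 2 members (Robo4 and Robo2) at an unadjusted p under 0.05. At that level the blocked test had 2868 genes (19.1%) and 7 members. DESeq2 called 65 genes (0.432%) and 0 members without a block, and 423 genes (2.81%) and 2 members, Slit1 and Robo2, with it. In the authors' deposited table the smallest false discovery rate of any member was 0.382.

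**Figure D1:**
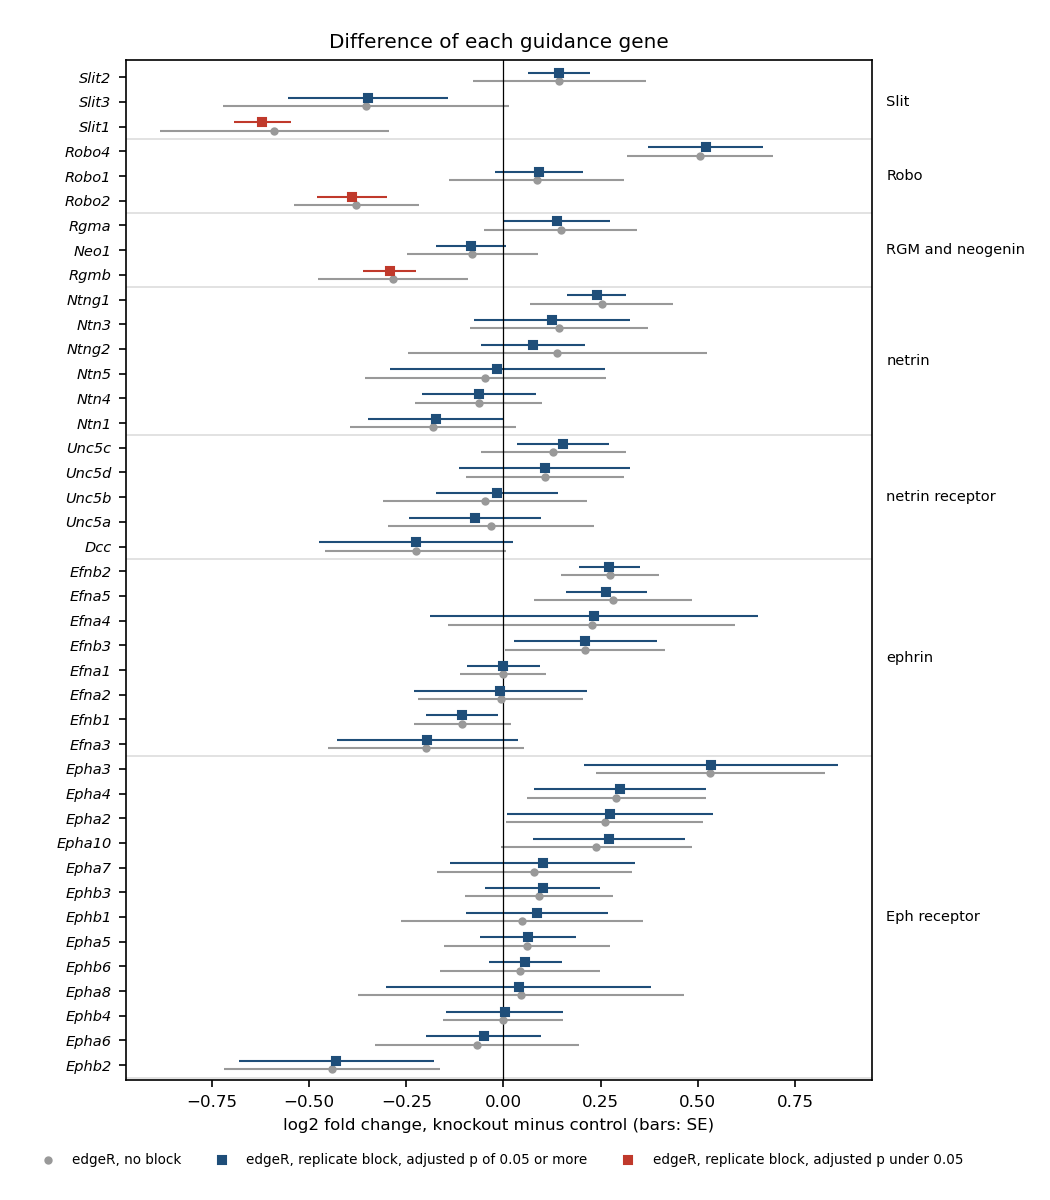
Log2 fold change (x axis, knockout minus control) of all 41 guidance genes, grouped by family, with SE as bars, from edgeR without a block (grey circles) and with the replicate block (squares). Only Slit1, Robo2 and Rgmb passed with the block (red squares); the remaining squares are blue.

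Among the Slits, Slit1 was the most abundant and the only one that passed. Slit1, on the minus strand of chromosome 19 (41600257 to 41743665, GRCm38), was at 162.6, 108.1 and 96.0 CPM in the control libraries. It was at 118.8, 65.2 and 59.7 CPM in the knockout libraries. Replicate 1 was the highest library of each group, so the groups overlapped, while each knockout library was below the control of its own number. On average the knockout libraries had 66.4% of the control level, from 122.3 ± 35.5 to 81.2 ± 32.6 CPM (SD, n = 3), with an edgeR adjusted p of 0.000928 with the block and 0.918 without it. The call held with each pair left out in turn (adjusted p = 0.00253, 9.20e-07 and 0.000618 without pairs 1, 2 and 3), and with DESeq2 and the block.

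Slit2, the Slit best known for repelling axons and promoting sensory branching, had a log2 fold change of 0.14 (SE 0.08, blocked adjusted p = 0.364). It was at 41.7, 26.3 and 39.4 CPM in the control and 48.8, 29.9 and 40.0 CPM in the knockout, slightly higher in each pair. Slit3 was at 1.81 to 4.70 CPM over the 6 libraries, lower in each pair, with a log2 fold change of -0.35 (SE 0.21, blocked adjusted p = 0.395). The ratio of Slit1 to Slit2 counts within a library does not depend on scaling. It was 3.90, 4.11 and 2.44 in control replicates 1 to 3 and 2.43, 2.18 and 1.49 in knockout replicates 1 to 3. It was thus lower in all 3 pairs, by 0.68, 0.92 and 0.71 on the log2 scale, and the lowest control and the highest knockout value nearly touched. An exact two-sided permutation test gave p = 0.1, the smallest that 3 against 3 libraries allow, and this ratio and those that follow were chosen after the values were seen.

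Robo2 was the guidance gene with the highest count. Robo2, on the minus strand of chromosome 16 (73891839 to 74411825, GRCm38), was at 306.3, 353.3 and 288.4 CPM in the control libraries and at 283.5, 252.9 and 192.8 CPM in the knockout libraries. The groups did not overlap, which held for 4 of the 41 members and for 11.1% of all tested genes. On average the knockout libraries had 76.9% of the control level, and the blocked adjusted p was 0.0498, just under the threshold. The call was lost without pair 3 (adjusted p = 0.119) and when another scaling, RLE, was used with the block (0.0627), and it held without pair 1 (0.0170) and without pair 2 (0.0105).

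Robo1, the paralogous Slit receptor, was at 17.6 to 29.5 CPM in the control and 21.5 to 32.1 CPM in the knockout libraries, with a log2 fold change of 0.09 (SE 0.11, blocked adjusted p = 0.719). The ratio of Robo2 to Robo1 counts was 10.4, 20.1 and 11.6 in the control and 8.83, 11.2 and 8.95 in the knockout libraries, lower in 3 of 3 pairs with overlapping groups (exact two-sided permutation p = 0.2). Control replicate 2 had by far the highest ratio. The ratio of Slit1 to Robo2, ligand to receptor, was 0.531, 0.306 and 0.333 in the control and 0.419, 0.258 and 0.309 in the knockout, also lower in each pair (exact p = 0.6).

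Robo4, a Robo of endothelial cells rather than of axons, had the smallest p of all members without the block, in the opposite direction to Robo2. It was at 6.10, 5.67 and 8.36 CPM in the control and 8.69, 9.59 and 10.4 CPM in the knockout libraries. The groups did not overlap, and the log2 fold change was 0.52 (SE 0.15), which did not pass (blocked adjusted p = 0.0810, 0.897 without the block). The 10 endothelial markers summed to 144.2, 131.1 and 178.8 CPM in the control and 171.4, 168.3 and 173.5 CPM in the knockout libraries. Of these, 8 had a higher and 2 a lower estimate, with a median of 0.16, and 0 passed. Relative to that sum, Robo4 was 4.23%, 4.32% and 4.68% in the control and 5.07%, 5.69% and 5.97% in the knockout libraries, so the groups did not overlap on this scale either (exact two-sided permutation p = 0.1, the smallest possible). Since the ganglion was sequenced whole, fewer cells of a type and less RNA per cell cannot be told apart for this gene or any other.

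**Figure D2:**
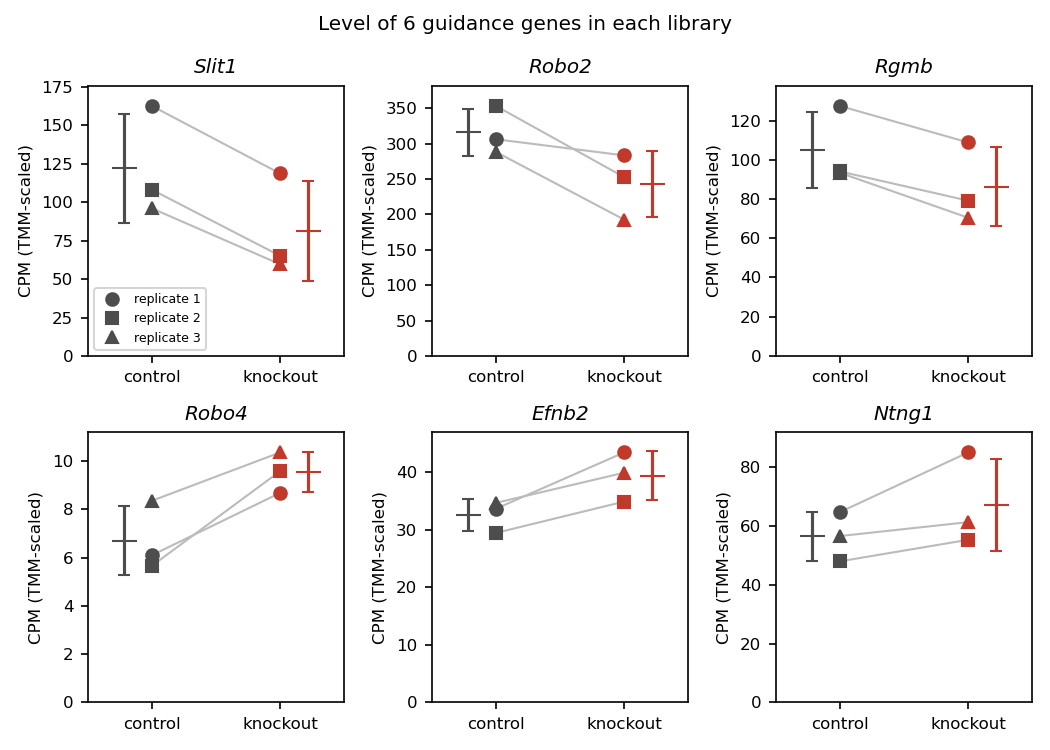
TMM-scaled CPM (y axis) of 6 guidance genes in each library, with grey lines joining libraries of the same number and a bar for the mean and SD of each group (n = 3). Slit1, Robo2 and Rgmb (top) are lower in the knockout in all 3 pairs, and Robo4, Efnb2 and Ntng1 (bottom) are higher in all 3, although these last did not pass.

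Rgmb fell, whereas Rgma and the shared receptor gene Neo1 did not pass. Rgmb, on the minus strand of chromosome 17 (15803188 to 15831039, GRCm38), was at 127.5, 94.1 and 93.4 CPM in the control libraries and at 108.9, 79.2 and 70.5 CPM in the knockout libraries. As for Slit1, replicate 1 was the highest library of each group and the groups overlapped, with an average at 82.1% of the control level. The blocked adjusted p was 0.0394, and it was 0.155 without pair 1, 0.0293 without pair 2 and 0.0550 without pair 3. DESeq2 with the block gave 0.0753, so that this call rests on the choice of test and of pairs.

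Rgma, which repels axons through neogenin, was at 7.08 to 9.41 CPM in the control and 7.60 to 11.3 CPM in the knockout libraries (log2 fold change 0.14, SE 0.14). The ratio of Rgmb to Rgma counts was 13.5, 13.3 and 11.3 in the control and 9.61, 10.4 and 8.34 in the knockout libraries. These groups did not overlap, and the ratio was lower by 0.50, 0.35 and 0.44 on the log2 scale in pairs 1 to 3 (exact two-sided permutation p = 0.1). Neo1, the neogenin gene, was at 33.2 to 44.9 CPM in the control and 29.4 to 42.0 CPM in the knockout (log2 fold change -0.08, SE 0.09, blocked adjusted p = 0.673). The ratio of Rgmb to Neo1 counts was 3.38, 2.83 and 2.08 in the control and 2.59, 2.69 and 1.85 in the knockout. It was lower in all 3 pairs, but the groups overlapped (exact two-sided permutation p = 0.4).

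**Figure D3:**
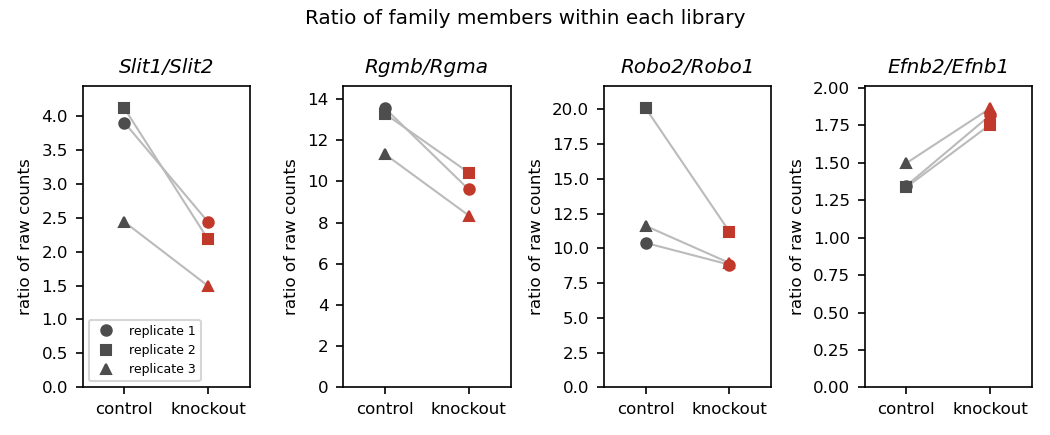
Ratio of raw counts of 2 members of a family (y axis) in each library, with grey lines joining libraries of the same number. Slit1/Slit2, Rgmb/Rgma and Robo2/Robo1 are lower in the knockout in 3 of 3 pairs and Efnb2/Efnb1 is higher in 3 of 3, and only for Robo2/Robo1 do the groups overlap.

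Markers of non-peptidergic nociceptors were also lower in the knockout libraries. All 10 markers of the list, which holds Mrgprd, Mrgpra3 and Sst among others, were lower, and 6 of them fell. Their sum went from 1361 to 1666 CPM in the control to 702.5 to 959.8 CPM in the knockout libraries. Replicate 2 had the highest sum in each group. Slit1 and Rgmb were highest in replicate 1 of each group, and Robo2 in control replicate 2 and knockout replicate 1. Against the general neuron markers, Robo2 was 2.44% to 3.10% in the control and 1.503% to 2.20% in the knockout without overlap (exact two-sided permutation p = 0.1). On the same scale Slit1 was 0.812% to 1.36% and 0.465% to 0.916%, and Rgmb was 0.790% to 1.07% and 0.550% to 0.840%. Both were lower in 3 of 3 pairs, but their groups overlapped (exact two-sided permutation p = 0.2 for Slit1 and 0.3 for Rgmb). Against the non-peptidergic markers the direction was the opposite, with Robo2, Slit1 and Rgmb each higher in 3 of 3 pairs. Robo2 was 19.8% to 21.2% of the marker sum in the control and 26.3% to 35.7% in the knockout. The groups did not overlap for Robo2 and Rgmb (exact two-sided permutation p = 0.1 for each), but they overlapped for Slit1 (p = 0.6). This direction follows from the denominator, since the marker sum was lower in the knockout by a larger factor than any of these 3 genes. The part of these markers in the falls of Slit1, Robo2 and Rgmb was not tested.

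Markers of the other cell classes are given by their medians. The 10 satellite glial markers had a median log2 fold change of 0.20 and summed to 4796 to 5972 CPM in the control and 5176 to 6782 CPM in the knockout. The 10 Schwann cell markers had a median of 0.08 and the 8 peptidergic nociceptor markers one of 0.18, of which Adcyap1 rose. Of the 10 markers of myelinated mechanoreceptors and proprioceptors 4 rose, with a median of 0.18. The 7 markers of low-threshold C fibres and cold-sensing neurons were all lower, with a median of -0.59, and 1, Gfra2, fell. That median was -0.20 without control replicate 2, and with the block it was -0.50 with all libraries and -0.33 without pair 2. Among the other classes, 10 macrophage markers had a median of 0.23 with C1qa and C1qb risen, 8 fibroblast markers one of 0.10 with Lum risen, 8 mural markers -0.25 with 0 called, and 4 adipocyte markers -1.64 with 0 called. The median log2 fold change of adipocyte markers was -0.85 without control replicate 3 and, with the block, -0.51 without pair 3. The 6 muscle markers had a median of -4.22 with 0 called, and the 1 erythroid marker in the table did not pass. Of the 10 general neuron markers 1, Syt1, fell.

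Among the netrins, the netrin-G genes Ntng1 and Ntng2 had the highest levels per length. Ntng1 encodes netrin-G1, a lipid-anchored synaptic adhesion ligand that binds NGL-1 and not Dcc. It was at 64.7, 48.0 and 56.6 CPM in the control and 85.0, 55.3 and 61.3 CPM in the knockout libraries, higher in each pair, and the groups overlapped. Its log2 fold change was 0.24 (SE 0.08) and did not pass (blocked adjusted p = 0.115), although it passed with pair 3 left out (0.0403). Ntng2 ranged from 11.4 CPM in control replicate 2 to 30.7 CPM in knockout replicate 1, with a log2 fold change of 0.08 (SE 0.13). The ratio of Ntng1 to Ntng2 counts was 2.79, 4.21 and 3.39 in the control and 2.77, 4.61 and 4.50 in the knockout. These groups overlapped (exact two-sided permutation p = 0.6).

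The secreted netrins were low. Ntn1, the classical midline attractant, was at 6.38 to 9.42 CPM in the control and 5.38 to 7.73 CPM in the knockout (log2 fold change -0.17, SE 0.17). Ntn4, a netrin of basement membranes, was at 6.14 to 8.08 CPM over the 6 libraries (-0.06, SE 0.15), Ntn3 at 2.98 to 4.82 CPM (0.12, SE 0.20) and Ntn5 at 1.18 to 2.34 CPM (-0.02, SE 0.28). None of the 6 netrins passed, and the smallest blocked adjusted p was the one of Ntng1.

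Among netrin receptors, Unc5c, which mediates repulsion, had the highest level per length. It was at 33.3, 20.8 and 33.7 CPM in the control and 34.2, 30.2 and 31.7 CPM in the knockout libraries, with control replicate 2 the lowest of the 6 libraries. Its log2 fold change was 0.15 (SE 0.12). Dcc, the attractive netrin receptor, was near the bottom of all members per length, at 2.13 to 2.66 CPM in the control and 1.75 to 2.28 CPM in the knockout (-0.22, SE 0.25). Unc5a (-0.07, SE 0.17), Unc5b (-0.02, SE 0.16) and Unc5d (0.11, SE 0.22) did not pass either, and blocked adjusted p-values of the 5 receptors ran from 0.531 to 0.967.

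Of the 8 ephrins, 4 had positive and 4 negative log2 fold changes without the block, and 0 passed. Efnb2, a transmembrane ephrin of vessels and neurons, came closest. It was at 33.7, 29.5 and 34.7 CPM in the control and 43.4, 34.9 and 39.9 CPM in the knockout libraries, with groups that did not overlap. Its log2 fold change was 0.27 (SE 0.08, blocked adjusted p = 0.0870). The ratio of Efnb2 to the other major transmembrane ephrin gene, Efnb1, was 1.35, 1.34 and 1.499 in the control and 1.82, 1.76 and 1.86 in the knockout, higher in each pair by 0.43, 0.39 and 0.32 on the log2 scale (exact two-sided permutation p = 0.1). Spread of this ratio within a group was small beside the difference between the groups, with means of 1.39 ± 0.0903 and 1.81 ± 0.0545 (SD, n = 3).

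Efna5, a lipid-anchored ephrin known for topographic mapping, was at 22.3, 16.9 and 17.5 CPM in the control and 29.3, 17.7 and 21.8 CPM in the knockout libraries. It was higher in each pair, the groups overlapped, and the threshold was missed (log2 fold change 0.26, SE 0.10, blocked adjusted p = 0.190). Efna1, the ephrin of highest level per length, was at 25.0, 26.5 and 23.2 CPM in the control and 25.1, 24.6 and 24.9 CPM in the knockout, with an SE of 0.09 around a log2 fold change of 0.00. The log2 fold changes of Efnb1, Efnb3, Efna2, Efna3 and Efna4 lay between -0.20 and 0.23, and Efna4 had as few as 7 counts in a library.

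Of the 13 Eph receptor genes, 0 passed, and 10 had positive estimates without the block. That count depends on 1 library, since without control replicate 2 only 4 of the 13 were positive and the family median went from 0.06 to -0.10. Ephb6, whose product lacks kinase activity, had the highest level per length. It was at 31.4, 19.01 and 23.5 CPM in the control and 29.9, 21.2 and 25.0 CPM in the knockout libraries, with a log2 fold change of 0.06 (SE 0.09). Epha5 at 11.9 to 20.5 CPM and Epha6 at 6.73 to 12.9 CPM had log2 fold changes of 0.06 (SE 0.12) and -0.05 (SE 0.15).

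Epha3, Ephb2 and Epha4 were the Eph receptors of smallest p without the block. Epha3 was at 0.784, 1.12 and 1.17 CPM in the control and 1.75, 1.46 and 1.23 CPM in the knockout libraries, without overlap, from as few as 14 counts in a library (log2 fold change 0.53, SE 0.33, blocked adjusted p = 0.413). Ephb2 was at 4.20, 2.66 and 2.62 CPM in the control and 2.22, 1.93 and 2.84 CPM in the knockout, with overlap (-0.43, SE 0.25, adjusted p = 0.392). Epha4, a receptor of both ephrin classes, was at 5.77, 4.31 and 7.14 CPM in the control and 7.20, 8.12 and 5.74 CPM in the knockout (0.30, SE 0.22, adjusted p = 0.514), higher in 2 of 3 pairs. The other 7, Epha2, Epha7, Epha8, Epha10, Ephb1, Ephb3 and Ephb4, had blocked log2 fold changes from 0.00 to 0.27 and adjusted p-values from 0.496 to 0.995.

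Across genes, levels can be compared only per length, here as CPM per kilobase of the longest coding transcript in GENCODE M21. In the control mean, Robo2 led with 36.8 CPM per kilobase, followed by Slit1 with 21.6, Rgmb with 18.4, Efna1 with 15.3, Ntng1 with 10.1 and Ntng2 with 9.08. Slit1 was above Rgmb in each of the 3 control libraries, by little in replicate 3 (16.9 against 16.4), and below it in knockout replicates 2 and 3. With the union of all exons as the length, Slit1 came first with 20.6, then Robo2 with 18.6 and Rgmb with 13.7. The same 3 genes thus led in both, although Efna1, with 13.6, was nearly level with Rgmb by exon union. The lowest levels were those of Epha3 with 0.181, Dcc with 0.227 and Epha8 with 0.264 CPM per kilobase. The blocked SE of Rgmb was the smallest among the 41, that of Slit1 the second and that of Robo2 the sixth.

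**Figure D4:**
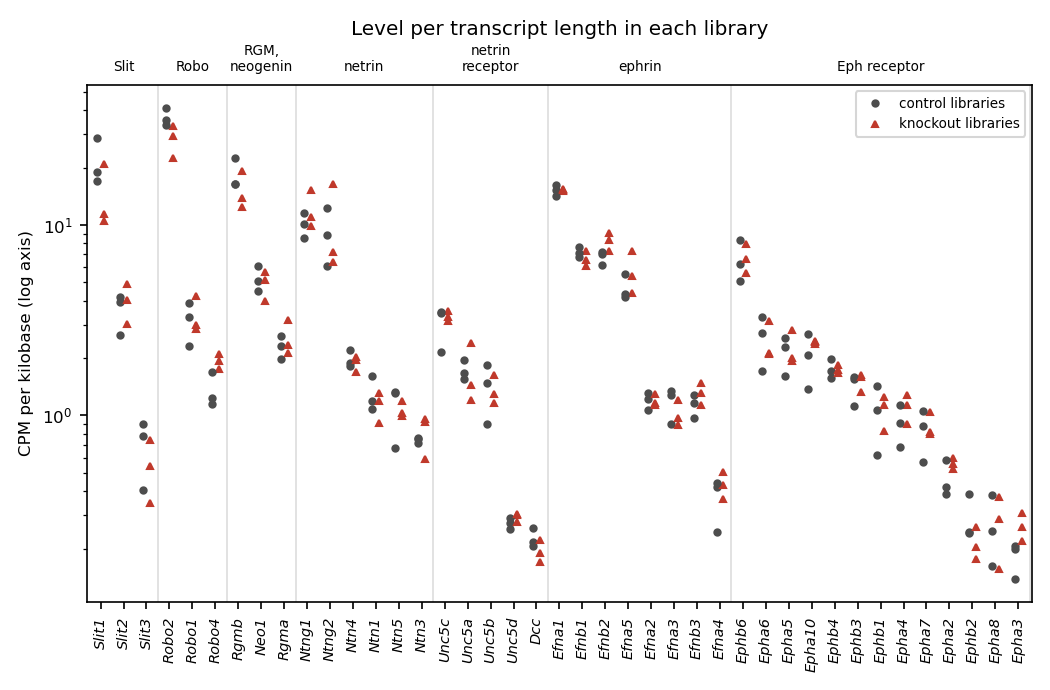
Level per transcript length (y axis, CPM per kilobase, log axis) of the 41 guidance genes in the 3 control libraries (circles) and the 3 knockout libraries (triangles), grouped by family. In the control mean Robo2, Slit1 and Rgmb are the 3 highest members and Epha3, Dcc and Epha8 the 3 lowest, while in the knockout mean Efna1 (15.2) lies above Rgmb (15.1) and Slit1 (14.3).

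The libraries of a group also differed across the members. Control replicate 2 was the lowest of the 6 libraries for 21 of the 41 members, against 23.7% of all tested genes. Control replicate 1 or knockout replicate 1 was the highest for 27 of the 41, against 38.1% of all tested genes. The summed level of all members was 1115, 937.1 and 966.5 CPM in the control libraries and 1095, 825.6 and 800.1 CPM in the knockout libraries. Their median log2 fold change was 0.05 without the block, against 0.01 over all tested genes, and it was -0.08 without control replicate 2. In all 3 pairs 9 members were higher (21.4% of all tested genes were) and 5 were lower (20.6%).

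**Figure D5:**
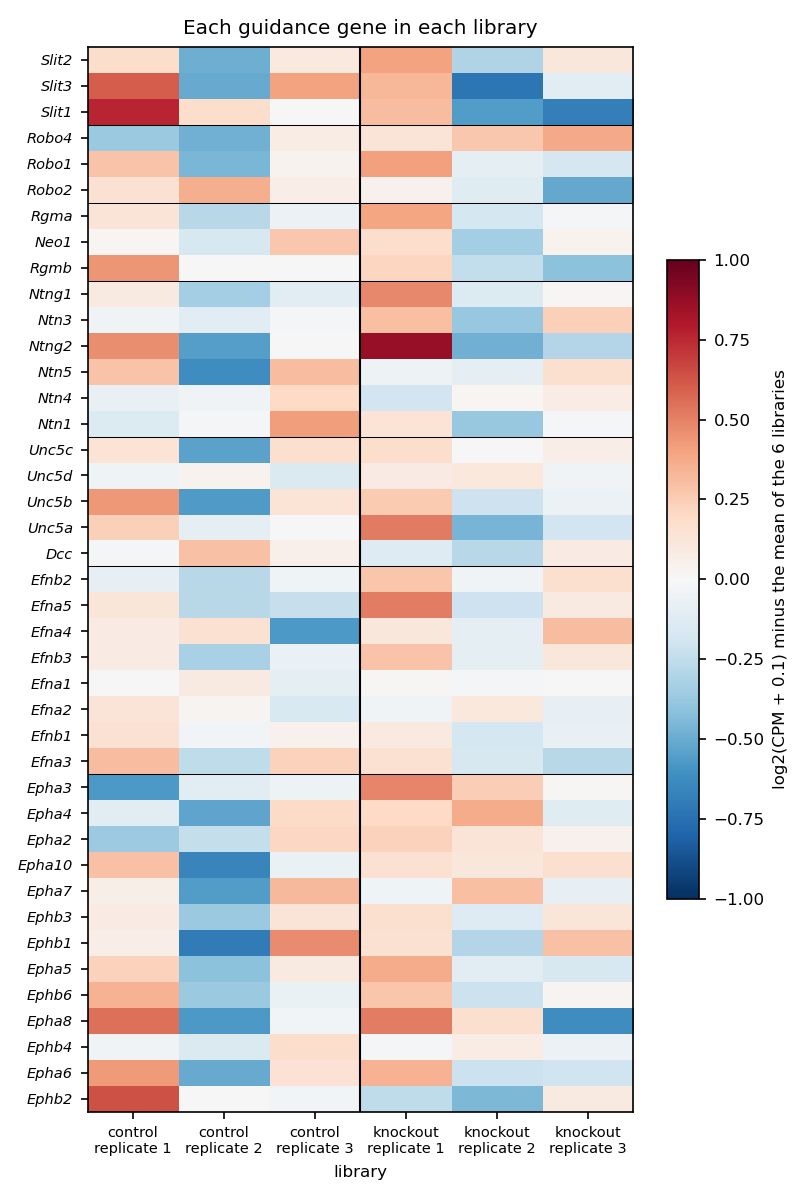
Log2(CPM + 0.1) of each guidance gene minus its mean over the 6 libraries (colour, blue low and red high), with libraries in columns and genes in rows by family. Control replicate 2 is blue for many genes, being the lowest library for 21 of 41, and the replicate 1 libraries of both groups are red for many.

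Partners and effectors of these pathways were taken from a separate list of 85 genes, of which 84 were tested. With the block, 3 rose (1.24% of all tested genes did) and 2 fell (2.36%), and without the block the median of the list was 0.05 (log2). Enah, an actin regulator of the growth cone that acts downstream of Robo and netrin receptors, rose by 0.34 (SE 0.07, adjusted p = 0.0254). It was at 197.1, 138.1 and 186.0 CPM in the control and 249.2, 195.2 and 212.6 CPM in the knockout libraries, with overlap. Lrrc4, which encodes NGL-2, the adhesion partner of netrin-G2, rose by 0.46 (SE 0.11, adjusted p = 0.0485). Its means were 11.1 ± 2.52 CPM in the control and 15.2 ± 3.40 CPM in the knockout (SD, n = 3), the groups overlapped, and the call was lost with DESeq2 and the block (adjusted p = 0.244).

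Id3, a transcriptional target of BMP signalling, rose by 0.49 (SE 0.10, adjusted p = 0.0255). It was at 65.7, 69.8 and 66.1 CPM in the control and 83.7, 87.9 and 114.6 CPM in the knockout libraries, without overlap. Ngef, which encodes the Eph-linked exchange factor ephexin, was at 3.23 ± 0.737 CPM in the control and 4.86 ± 0.554 CPM in the knockout (0.60, SE 0.22, adjusted p = 0.166, not passed).

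Dapk1, a kinase known to act in cell death signalling by Unc5 receptors, fell by 0.56 (SE 0.07, adjusted p = 0.00116). It was at 92.7, 79.9 and 63.8 CPM in the control and 60.1, 55.9 and 43.6 CPM in the knockout libraries, without overlap. Anks1b, a synaptic scaffold gene related to the Eph adaptor Anks1, fell by 0.46 (SE 0.08, adjusted p = 0.00731), from 53.4 ± 4.64 to 38.7 ± 0.930 CPM, and its groups did not overlap. The authors' deposited table gives a false discovery rate of 0.0127 for Anks1b and 0.0445 for Id3, and 0.0907 or more for the other 3. All 12 shared GTPase and actin genes, such as Rac1, Rhoa and Cfl1, missed the threshold. The number called in the list was 2, 4 and 7 with pairs 1, 2 and 3 left out, and 0 without the block.

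Exons of 12 of the 41 members overlap those of another gene in GENCODE M21, 11 of them on the opposite strand, and the sources do not state whether the counting used strand. Slit1, Robo2, Rgmb, Robo4, Efnb2 and Ntng1 are not among these 12.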

How the data were processed

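Per the labels' protocols, poly(A) RNA was purified from TRIzol extracts of dorsal root ganglia, fragmented and made into libraries by adapter ligation and PCR. The submitters' processing notes name build mm10 and the tools cutadapt, STAR and DESeq2. Of the counter, the annotation and any versions nothing is stated. A table deposited by the authors holds raw counts per gene, log2 fold changes, p-values and a false discovery rate, per the file headers, and its smallest row total was 6 counts. A further 12 per-library columns of transformed or scaled values were not used.

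The main test was that of edgeR 4.0.16 in R 4.3.3 (filterByExpr, TMM scaling, robust quasi-likelihood test, group as the only term, Benjamini-Hochberg threshold 0.05). Alternatives were a replicate block, DESeq2 1.42.0, limma-voom (limma 3.58.1), other scalings and filters, and each library or pair left out. SE is the log2 fold change divided by the root of the F statistic. The groups share replicate numbers: over 15043 genes, deviations from the group means correlated by 0.53, 0.30 and 0.17 (Pearson) in pairs 1, 2 and 3. All exceeded 0.1, so same-numbered libraries were treated as pairs. However, control replicate 2 and knockout replicate 3 also reached 0.14, and the labels do not say what a number shares. The pairing was thus chosen from the same counts, and p-values of the blocked test do not allow for that choice. Values per library are TMM-scaled CPM. Fits were tested on simulated data in which same-numbered libraries shared an effect and changes were larger than those of the called members. That test therefore cannot show whether the real libraries are pairs.

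Members, lists and rules were chosen with earlier results of these data known. Values in every library are given for members that passed, the 10 of smallest p without the block and the highest per length of each family. Of the effector list, genes that passed with the block are named, with the 2 of smallest p on each side without it. GENCODE M21 and the RefSeq windows use GRCm38, which mm10 denotes.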

Additional observations from a re-analysis of the deposited data

How the results depend on the processing

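No member passed without the block, so each call of a member depends on treating the libraries as pairs. The number of members called was 3 with the replicate block, 2 with DESeq2 and the block, 2 with RLE scaling and the block, and 0 to 3 when a library or pair was left out. Over all genes these counts were 542, 423 and 538, with 65 for DESeq2 without a block and 0 to 897 when a library or pair was left out (208, 819 and 897 with the block and pairs 1, 2 and 3 out). For the effector list they were 5, 4 and 5, and 0 to 7. The cause was not tested. With 3 libraries a group, no exact permutation test can go below p = 0.1, and Efna4, with 7 counts in a library, shows what depth limits.

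With a library or pair left out, the log2 fold changes of 23 members took both signs: Efna1 (-0.050 to 0.058), Efna2 (-0.084 to 0.067), Efna4 (-0.11 to 0.49), Epha5 (-0.13 to 0.22), Epha6 (-0.28 to 0.14), Epha7 (-0.25 to 0.36), Epha8 (-0.28 to 0.39), Ephb1 (-0.21 to 0.34), Ephb3 (-0.045 to 0.18), Ephb4 (-0.10 to 0.12), Ephb6 (-0.10 to 0.24), Neo1 (-0.22 to 0.053), Ntn1 (-0.42 to 0.0046), Ntn3 (-0.0022 to 0.33), Ntn4 (-0.13 to 0.027), Ntn5 (-0.29 to 0.16), Ntng2 (-0.42 to 0.41), Rgma (-0.043 to 0.26), Robo1 (-0.12 to 0.25), Slit2 (-0.040 to 0.31), Unc5a (-0.38 to 0.16), Unc5b (-0.27 to 0.18) and Unc5c (-0.058 to 0.28). So did the medians of Schwann markers (-0.071 to 0.21), erythroid markers (-0.048 to 0.65), fibroblast markers (-0.081 to 0.26), macrophage markers (-0.0090 to 0.42), mural markers (-0.47 to 0.018), muscle markers (-6.53 to 1.15), neuron markers (-0.012 to 0.088) and the members (-0.085 to 0.14). The sign also differed for 4 members near 0 under other settings: Efna2 with upper quartile scaling (0.0079), Efna1 with limma-voom (0.00085), upper quartile scaling (0.012), DESeq2 and the block (0.00050) and RLE and the block (0.00047), Ephb4 with the block (0.0029), limma-voom (0.0028), upper quartile scaling (0.011), DESeq2 and the block (0.0040) and RLE and the block (0.0035), and Ntn5 with limma-voom (0.0082) and DESeq2 and the block (0.0058).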
